A study of Elaeis guineensis with 15 samples.

Results

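The ripe fruit abscission zone (AZ) of oil palm (Elaeis guineensis) was examined at 150 days after pollination (DAP), after 9 h of treatment with 10 μl/l ethylene (AZ150 at 9 h) and before treatment (AZ150 at 0 h). These are 2 of the 15 libraries of the series, 1 library at each time, chosen by their labels alone. The other libraries used beside them are AZ150 at 3 h and 6 h, the pedicel of fruit at 150 DAP (P150) and the AZ of immature fruit at 30 DAP (AZ30) at 9 h and 0 h, and field AZ tissue at 30, 120 and 160 DAP that received no ethylene, of which only the 160 DAP tissue came from fruit that were being shed. All fruit of the ethylene experiment came from bunches of a single tenera clone. The tissue is the base of the fruit that contains the AZ, not the AZ cells alone, and pieces from many fruits were pooled into each library. In the study's sections, cells of the ripe AZ had separated after 9 h of ethylene, while those of the immature AZ and the pedicel had not. No tissue was kept without ethylene for 9 h, so the effect of ethylene and that of the hours after sampling cannot be told apart.

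An abscission zone is a plate of small cells laid down across the stalk of an organ. When the organ is ready to be shed, the pectin-rich middle lamella between these cells is dissolved by secreted enzymes, above all polygalacturonases, which cut the pectin backbone, helped by enzymes that act on hemicelluloses and by expansins that loosen the wall. Ethylene is the hormone that sets this off in ripe fruit: it is made from 1-aminocyclopropane-1-carboxylate (ACC) by ACC oxidase, binds receptors that otherwise hold the pathway off, and acts through EIN3 and the ethylene response factors, whereas auxin delays shedding. Pathogenesis-related proteins such as beta-1,3-glucanases, chitinases and thaumatins are commonly made in separating tissue, where the newly bared surface is open to microbes.

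The reads had been assembled into 51804 contigs, each standing for a transcript or a part of one. A level is given as reads per 100000 reads of the library that fell in contigs. The AZ150 library at 9 h held 127153 such reads and that at 0 h 102611, so that the floor of 3 reads, taken here for a count of 0, was 2.36 reads per 100000 at 9 h and 2.92 at 0 h. The libraries at 3 h (56408 reads) and 6 h (84788 reads) were shallower. Of the other libraries, AZ30 at 0 h (26560 reads, floor 11.3 per 100000) and P150 at 9 h (41588 reads, floor 7.21) were the thinnest, which limits what can be said of genes at 0 there. Contigs were compared by the Audic and Claverie test of 2 counts and called at a two-sided p under 0.01 with no adjustment. With 1 library at each time there is no replicate check: a call says that 2 libraries differ beyond counting error, and the intervals in square brackets are exact 95% intervals of a ratio of counts, which cover counting error only.

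Of 28476 contigs with a read in either AZ150 library, 493 (1.73%) were called higher and 743 (2.61%) lower at 9 h. The contigs called higher took 29.1% of all contig reads at 9 h and 5.88% at 0 h, and those called lower 6.38% at 9 h and 23.9% at 0 h. Among the calls, 287 of the higher and 392 of the lower differed by at least 4-fold, and 135 and 152 by at least 8-fold. Alternative fits took the spread from the other 10 libraries of the experiment, after terms for tissue and time, in place of counting error. Those libraries are not replicates, so that spread includes any differences between tissues in their time course. At an adjusted p under 0.05, edgeR called 41 higher and 2 lower and DESeq2 41 higher and 11 lower. DESeq2 gave no adjusted p for 9389 of the 10762 contigs fitted. Of the 117 contigs named by rule, 115 entered the edgeR fit, and 24 were called by edgeR and 26 by DESeq2. The balance of the calls depended on the scaling and on the test. By scaling, 39.9% of them were higher as given, 54.0% with TMM and 52.0% with DESeq2 size factors, which moved every log2 ratio up by 0.22 and 0.16. An exact binomial test on the scaling as given called 493 higher and 566 lower, so it lost lower calls only.

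The median log2 ratio of 9 h to 0 h was -0.07 over the 4870 contigs with at least 10 reads. A product name was at hand for 1050 contigs, 1024 of them with a read in AZ150, and these had been picked by the study from the same libraries. They include 481 of the 493 higher calls and 127 of the 743 lower ones, so 47.0% of the annotated contigs were called higher and 12.4% lower, and their median log2 ratio was 1.34. Counts in the lists below are to be read against those shares, and list medians against 1.34, since every list is drawn from these contigs. A list median between -0.07 and 1.34 is above that of all contigs but below that of the annotated ones. Neither counts nor medians are independent evidence of a direction. Some contigs match the same transcript (119 contigs share 50 transcripts), so reads of 1 gene may be divided between them.

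**Figure D1:**
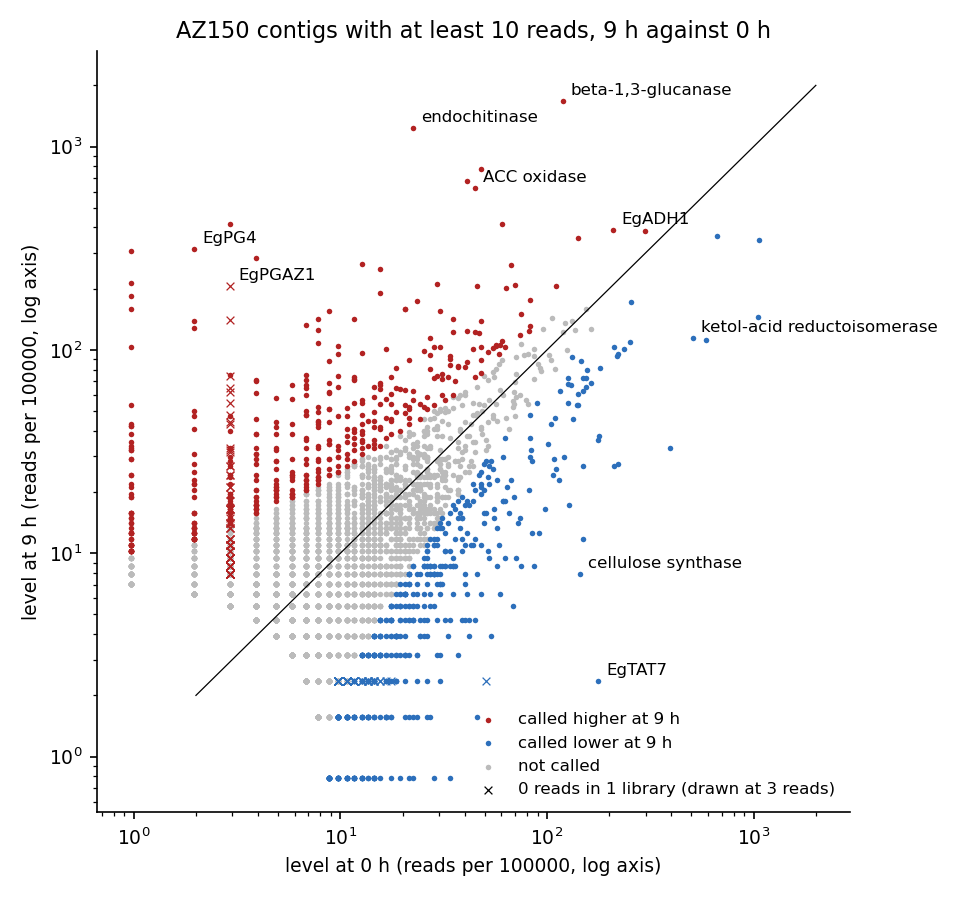
Level of each contig with at least 10 reads over both AZ150 libraries, at 9 h (vertical) against 0 h (horizontal), in reads per 100000 on log axes, with 1 library at each time and the line of equal levels. Red points are the contigs called higher at 9 h, blue those called lower and grey those not called, and crosses had 0 reads in 1 of the libraries and are drawn at 3 reads. EgPG4 lies at 312 at 9 h and 1.95 at 0 h, and EgTAT7 at 2.36 at 9 h and 177 at 0 h.

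Pectin enzymes were the list with the highest median. All 3 named polygalacturonases of the ripe AZ, almost unread at 0 h, were called higher after 9 h of ethylene, as were EgPMEI and 2 more of the 7 contigs of this list, with none called lower. The list's median log2 ratio was 3.82, and its summed level was 760.5 reads per 100000 at 9 h and 16.6 at 0 h.

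EgPG4 (contig CL1Contig10800, LOC105034919), a polygalacturonase, had 397 reads at 9 h and 2 at 0 h, with 22 at 3 h and 56 at 6 h. As levels these are 312 reads per 100000 at 9 h and 1.95 at 0 h, a 160-fold difference [44.1 to 1327] with exact p = 3.1e-98. The level at 9 h was well above those at 3 h (39.0) and 6 h (66.0), so the last 3 h of the series held the largest step. EgPGAZ1 (CL1Contig6920, LOC105056882) is annotated as an endo-polygalacturonase like Arabidopsis ADPG1, which acts in pod and anther opening and seed abscission of that plant. It had 262 reads at 9 h and 0 at 0 h (206 reads per 100000 against the floor), at least 70.5-fold higher, with 49.6 per 100000 at 3 h and 28.3 at 6 h. Its relative EgPGAZ2 (CL1Contig9409, LOC105056874) had 41 reads at 9 h and 0 at 0 h, at least 11-fold higher, with 4 reads at 3 h and 0 at 6 h. Reads of these 2 related contigs may not be fully told apart.

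EgPMEI (CL1Contig10995) had 179 reads at 9 h and 0 at 0 h, at least 48.2-fold higher. Its product name places it in the superfamily of invertase and pectin methylesterase inhibitors. Such inhibitors hold back the enzymes that strip methyl groups from pectin. The study's discussion instead calls it a pectinesterase, which is an enzyme of that stripping kind. Which activity it has was not tested. Unlike EgPG4, EgPMEI was already high at the first sampling. Its level was 72.7 reads per 100000 at 3 h and 86.1 at 6 h, against 141 at 9 h. A further polygalacturonase-like contig (CL1Contig8622) had 35 reads at 9 h and 2 at 0 h (14.1-fold [3.63 to 121], exact p = 2.9e-07). The pectin acetylesterase contig (CL1Contig2129), an enzyme that removes acetyl groups from pectin, had 49 reads at 9 h and 13 at 0 h (3.04-fold [1.63 to 6.11], exact p = 1.7e-04).

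Levels of the pectin genes at 9 h differed between the tissues. The base of the fruit also holds mesocarp, which pieces of pedicel do not, and its part in these contrasts was not tested. EgPG4 had 0 reads in P150 at both 9 h and 0 h, and in AZ30 100 reads at 9 h (46.6 reads per 100000) and 0 at 0 h. Its level in AZ150 at 9 h was thus at least 43.3-fold that of P150 and 6.70-fold [5.36 to 8.42] that of AZ30 at the same hour. EgPGAZ1 at 9 h was at 206 reads per 100000 in AZ150, against 4.81 in P150 and 25.2 in AZ30, which puts AZ150 42.8-fold [11.7 to 356] above P150 and 8.18-fold [6.09 to 11.2] above AZ30. EgPMEI at 9 h was 14.6-fold [5.62 to 54.3] above P150 and 2.14-fold [1.71 to 2.69] above AZ30. These are differences in level at 1 time between single libraries. The test of the difference between ratios (9 h to 0 h in AZ150 against the same in another tissue) had almost nothing to work with for these genes, which are near 0 at 0 h everywhere, and gave adjusted p = 1 for EgPG4, EgPGAZ1 and EgPMEI in both tissues. The pectin acetylesterase went the other way: its level at 9 h was 38.5 reads per 100000 in AZ150, 120 in P150 and 59.7 in AZ30, and its ratio was lower in AZ150 than in P150 (adjusted p = 0.0017).

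**Figure D2:**
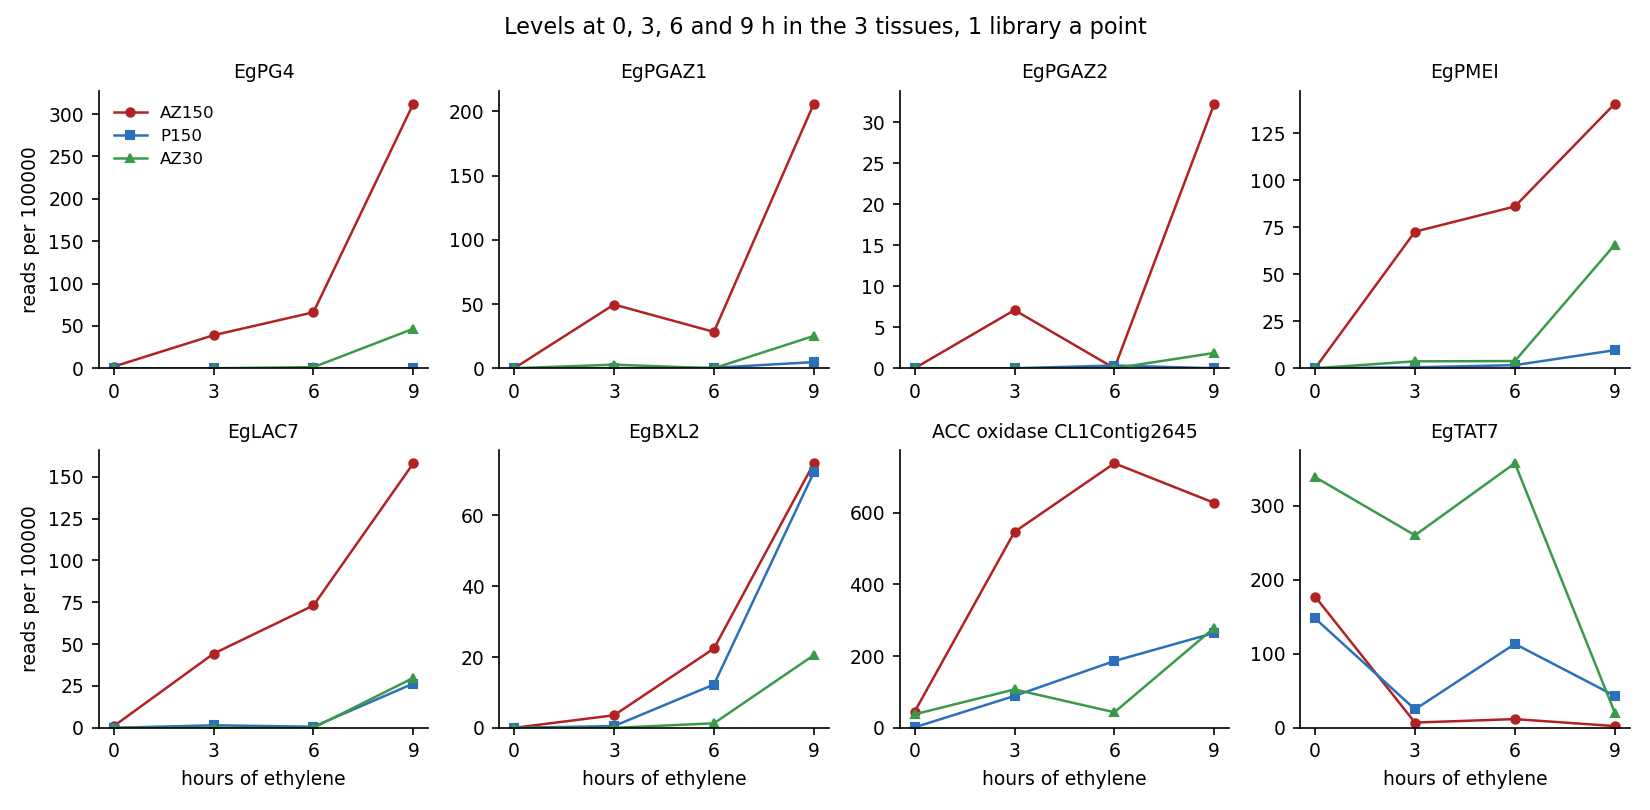
Levels in reads per 100000 (vertical, from 0) at 0, 3, 6 and 9 h of ethylene (horizontal) for 8 contigs, with 1 library at each point: AZ150 in red circles, P150 in blue squares and AZ30 in green triangles. At 9 h EgPG4 reached 312 in AZ150, 0 in P150 and 46.6 in AZ30, EgBXL2 reached 74.7 in AZ150 and 72.1 in P150, and EgTAT7 was at 2.36 in AZ150, 43.3 in P150 and 20.5 in AZ30.

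Enzymes that act on the other wall polymers were also mostly higher at 9 h. Of 13 contigs for glycosidases and wall loosening, 8 were called higher and 2 lower, with a median log2 ratio of 2.50. The summed level was 1030 reads per 100000 at 9 h and 171 at 0 h, and it was higher still at 6 h (1402). Most of that sum was 1 contig, a beta-galactosidase (CL1Contig3577), an enzyme that trims galactose side chains from wall polymers, with 858 reads at 9 h and 42 at 0 h (16.5-fold [12.1 to 23.0], exact p = 4.6e-163) and its highest level at 6 h (1170 reads per 100000). In P150 the same contig was at 1046 at 9 h and 24.4 at 0 h, and its ratio there was above that of AZ150 (adjusted p = 0.0092), a call that was lost under TMM scaling (adjusted p = 0.72).

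EgBXL2 (CL1Contig2306), a beta-xylosidase that releases xylose from hemicellulose, had 95 reads at 9 h and 0 at 0 h, at least 25.6-fold higher, and a second xylosidase contig that matches the same transcript (CL1Contig2278) had 31 reads at 9 h and 0 at 0 h. Its level at 9 h did not set the AZ apart from the pedicel: 74.7 reads per 100000 in AZ150 and 72.1 in P150, a ratio of 1.04 [0.681 to 1.62]. EgBGLC1 (CL1Contig8124), a beta-glucosidase, had 89 reads at 9 h and 4 at 0 h (18.0-fold [6.77 to 67.3]). EgMAN7 (CL1Contig20303), an endo-beta-mannanase, cuts mannan, and its Arabidopsis relative acts in pod opening. It had 13 reads at 9 h and 0 at 0 h (at least 3.50-fold, exact p = 9.1e-04), and a mannanase contig of the same transcript (CL1Contig8313) had 21 and 0.

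Expansins, which slip wall polymers past each other without cutting them, divided. An expansin (CL1Contig11417) had 42 reads at 9 h and 0 at 0 h, at least 11.3-fold higher, and at 9 h stood 13.7-fold above P150 [2.33 to 555] (33.0 reads per 100000 against 2.40, a single read). An expansin-like contig (CL1Contig4635) had 76 reads at 9 h and 7 at 0 h (8.76-fold [4.05 to 22.5]) but at 9 h was at the same level in AZ150 (59.8 reads per 100000) and P150 (60.1). A further expansin-like contig, with 22 reads at 9 h and 14 at 0 h, was not called.

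Other wall genes were called lower at 9 h. A cellulose synthase contig (CL1Contig12538, LOC105038191), of the family that spins cellulose chains, had 10 reads at 9 h and 148 at 0 h, 18.3-fold lower [9.70 to 39.0] with exact p = 8.3e-40. Its level was 33.7 reads per 100000 at 3 h and 90.8 at 6 h, between the end points but not in order. A xyloglucan endotransglucosylase (CL1Contig17330), which cuts and rejoins xyloglucan in growing walls, had 11 reads at 9 h and 77 at 0 h (8.67-fold lower [4.59 to 18.1], exact p = 6.0e-17). EgLRX4, a leucine-rich repeat extensin of the wall, had 5 reads at 9 h and 19 at 0 h. Of the 3 contigs for cellulose synthases and their relatives, 2 were called lower and 1 higher, a cellulose synthase-like protein (CL1Contig24120) with 69 reads at 9 h and 18 at 0 h (3.09-fold [1.82 to 5.52]). In AZ30 that contig went the other way, with 28.9 reads per 100000 at 9 h and 86.6 at 0 h, and the ratios differed (adjusted p = 1.6e-06).

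Laccases oxidise phenolic units such as those of lignin. EgLAC7 (CL1Contig10326, LOC105052147), whose Arabidopsis relative is tied to floral organ abscission, had 201 reads at 9 h and 1 at 0 h, a 162-fold difference [28.8 to 6438] with exact p = 4.1e-50. It climbed through the series, at 44.3 reads per 100000 at 3 h, 73.1 at 6 h and 158 at 9 h, and at 9 h was 5.98-fold [3.27 to 12.2] above P150 and 5.30-fold [3.98 to 7.13] above AZ30. EgC4H, the cinnamate 4-hydroxylase at the head of the phenylpropanoid pathway, had 57 reads at 9 h and 14 at 0 h (3.29-fold [1.81 to 6.38]) and at 9 h was at 44.8 reads per 100000 in AZ150, 2.40 in P150 and 21.9 in AZ30. In this list of 7 contigs 4 were called higher and 2 lower, with a median of 2.28, and the cinnamoyl CoA reductases, which make monolignol precursors, went both ways: 2 were called higher, and CL1Contig13368 was lower (61 reads at 9 h and 85 at 0 h, 1.73-fold lower [1.23 to 2.44]), a call that did not survive TMM scaling. EgPG4, EgPGAZ1 and EgLAC7 do not check the AZ label: at 0 h none of them had more than 2 reads, and at 9 h they were also read in AZ30 (100, 54 and 64 reads), with 11 reads of EgLAC7 in P150. No marker of AZ cells before treatment was at hand.

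Beta-1,3-glucanases, chitinases and thaumatins were the list with the most reads at 9 h. Of 29 contigs 24 were called higher and 1 lower, with a median log2 ratio of 2.96. Together they took 6137 reads per 100000 at 9 h and 375 at 0 h, with 1858 at 3 h and 2018 at 6 h. Similar sums were found at 9 h in P150 (5201) and AZ30 (5876), against 432 and 173 at 0 h, and 21 of the 29 contigs were called higher in P150 and 16 in AZ30. Of all annotated contigs, which the study picked from the same libraries, 23.3% were called higher in P150 and 14.5% in AZ30.

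Within that list the beta-1,3-glucanase CL1Contig7306, an enzyme that breaks callose and fungal glucan, had 2128 reads at 9 h and 122 at 0 h (14.1-fold [11.7 to 17]). At 9 h its level was 1674 reads per 100000 in AZ150 and 1700 in P150, a ratio of 0.984 [0.904 to 1.07]. The endochitinase CL1Contig10109 had 1570 reads at 9 h and 23 at 0 h (55.1-fold [36.6 to 87.2]), and its level at 9 h was 1235 reads per 100000 in AZ150, against 488 in P150 and 1528 in AZ30. A beta-1,3-endoglucanase (CL1Contig11305, LOC105033964) had 270 reads at 9 h and 1 at 0 h (218-fold [38.8 to 8638]), nearly all of it late, with 16 reads per 100000 at 3 h and 9.44 at 6 h.

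Thaumatins, small antifungal proteins, included members whose level in the ripe AZ stood apart from that in the other tissues. EgThaumatin PR (CL1Contig8813) had 3, 11, 14 and 530 reads at 0, 3, 6 and 9 h, so that 9 h was 143-fold above 0 h [48.5 to 694]. At 9 h it was 21.7-fold [10.9 to 50.5] above P150 and 10.9-fold [8.62 to 13.9] above AZ30. The osmotin-like EgOSM34 (CL1Contig1963) had 234 reads at 9 h and 1 at 0 h (189-fold [33.6 to 7490]) and at 9 h was at 184 reads per 100000 in AZ150, 19.2 in P150 and 0.466, a single read, in AZ30. By contrast another thaumatin-like contig (CL1Contig549), with 177 reads at 9 h and 2 at 0 h, was at much the same level at 9 h in AZ150 (139 reads per 100000) and P150 (149). The member called lower was a pathogenesis-related protein (CL1Contig2084) with 5 reads at 9 h and 16 at 0 h.

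In ethylene synthesis and perception 7 of 11 contigs were called higher and 1 lower, with a median log2 ratio of 1.05. The ACC oxidase contigs carried the list. CL1Contig2645 had 797 reads at 9 h and 46 at 0 h (14-fold [10.4 to 19.3], exact p = 5.5e-145) and was near its plateau by 3 h, at 546 reads per 100000, with 737 at 6 h and 627 at 9 h. CL1Contig6785 had 79 reads at 9 h and 0 at 0 h (at least 21.3-fold), and EgACO5 (CL1Contig8039) had 83 and 0 (at least 22.3-fold). The first 2 of these contigs differed from the pedicel in opposite senses. CL1Contig2645 was at 264 reads per 100000 at 9 h and 1.36 at 0 h in P150, a larger ratio than in AZ150 (adjusted p = 4.3e-06), while CL1Contig6785 was at 7.21 at 9 h and 8.59 at 0 h in P150, a smaller one (adjusted p = 1.1e-04).

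Among the receptors, which repress the response until ethylene binds, EgEIN4 (CL1Contig5018) had 105 reads at 9 h and 41 at 0 h (2.07-fold [1.43 to 3.04], exact p = 5.6e-05) and a second receptor (CL1Contig10493) 58 and 25 (1.87-fold [1.15 to 3.12], exact p = 0.0096). EgEIN3 (CL1Contig4369), the transcription factor at the end of the pathway, was the member called lower, with 36 reads at 9 h and 52 at 0 h (1.79-fold lower [1.15 to 2.82], exact p = 0.0067), and was at 17.7 reads per 100000 at 3 h and 18.9 at 6 h, below its level at 9 h (28.3). EgEIN4 was not called by edgeR (adjusted p = 0.84) or DESeq2 (adjusted p = 0.66).

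Ethylene response factors, which bind the promoters of ethylene target genes, did not move as a group between 0 h and 9 h. Of 16 contigs 6 were called higher, 3 lower and 7 not called, with a median of 0.73 and a summed level of 482 reads per 100000 at 9 h and 441 at 0 h. Between these times the sum was 339 at 3 h and 670 at 6 h. A factor contig (CL1Contig15779) had 34 reads at 9 h and 0 at 0 h (at least 9.15-fold), and EgRAP2.2 had 102 and 28 (2.94-fold [1.92 to 4.64]). Going the other way, CL1Contig6692 had 20 reads at 9 h and 67 at 0 h (4.15-fold lower [2.49 to 7.22]). The 2 contigs named EgRAP2.4/WIND1 went opposite ways: CL1Contig2248 had 10 reads at 9 h and 41 at 0 h, and CL1Contig5354 had 27 and 5. EgERF18, with 32 reads at 9 h and 43 at 0 h, was not called (exact p = 0.028).

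Auxin genes were likewise divided, 4 of 10 called higher and 3 lower with a median of 0.26. Those called higher include EgGH3.5 (CL1Contig6277), whose family couples auxin to amino acids and so takes it out of action, with 60 reads at 9 h and 2 at 0 h (24.2-fold [6.42 to 204]), a hydrolase that frees auxin from such conjugates (24 reads at 9 h and 5 at 0 h), and the carriers EgPILS6 (12 and 0) and an auxin efflux carrier (41 and 12). Those called lower are an auxin response factor of type 8 (20 reads at 9 h and 39 at 0 h), EgIAA27, a repressor of auxin response (0 and 7), and an auxin-repressed protein (1 and 11).

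In the jasmonate list 7 of 9 contigs were called higher and 1 lower, with a median of 1.62. EgMYC2 (CL1Contig697), the master transcription factor of jasmonate response, had 27 reads at 9 h and 1 at 0 h (21.8-fold [3.59 to 892]). Contigs for JAZ repressors went both ways: 3 were called higher, while the TIFY 6B contig of the same family was lower (11 reads at 9 h and 31 at 0 h). The lipoxygenase EgLOX5 had 27 reads at 9 h and 5 at 0 h. A 23 kDa jasmonate-induced protein (CL1Contig12732) had 55 reads at 9 h and 1 at 0 h, and at 9 h was at 43.3 reads per 100000 in AZ150 against 89.0 in P150.

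Of 19 contigs for NAC, WRKY and MYB transcription factors 15 were called higher and none lower, with a median of 1.57. NAC factors drive senescence and wall programmes in many plants. The NAC contig CL1Contig6588 had 95 reads at 9 h and 10 at 0 h (7.67-fold [3.99 to 16.5]), EgATAF1 84 and 15 (4.52-fold [2.59 to 8.43]), and EgNAC6 75 and 27 (2.24-fold [1.43 to 3.62]). The WRKY contig CL1Contig12932 had 107 reads at 9 h and 35 at 0 h (2.47-fold [1.67 to 3.72]). In the other tissues 13 of its contigs were called higher in P150 and 8 in AZ30, to be read against 23.3% and 14.5% of the annotated contigs. Of 2 genes whose relatives take part in organ shedding elsewhere, EgBEL1, a homeodomain factor, had 74 reads at 9 h and 38 at 0 h and was not called (exact p = 0.027), though TMM and DESeq2 scaling put it past the threshold, and the receptor kinase EgHSL1 had 4 and 15 (4.65-fold lower [1.48 to 19.2], exact p = 0.0028).

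Amino acid metabolism held 18 of 28 contigs called higher and 1 lower, with a median of 2.30 and a summed level of 1372 reads per 100000 at 9 h and 412 at 0 h. EgASN1 (CL1Contig9383), an asparagine synthetase, which packs nitrogen into asparagine for export from ageing tissue, had 360 reads at 9 h and 4 at 0 h (72.6-fold [28.1 to 268], exact p = 1.8e-85). It was at 40.8 reads per 100000 at 3 h, 89.6 at 6 h and 283 at 9 h. Glutamate dehydrogenase EgGDH1 had 64 reads at 9 h and 2 at 0 h (25.8-fold [6.86 to 218]), and the branched-chain aminotransferase EgBCAT3, which opens the breakdown of leucine, isoleucine and valine, had 49 and 4 (9.89-fold [3.62 to 37.7]). EgHMT2, a homocysteine methyltransferase of methionine synthesis, had 202 reads at 9 h and 21 at 0 h (7.76-fold [4.94 to 12.8]) and at 9 h stood 13.2-fold [5.57 to 41.1] above P150 and 68.1-fold [28.7 to 212] above AZ30. At 0 h it was already higher in AZ150 (20.5 reads per 100000) than in P150 (4.52), and the ratios of these 2 tissues were not called different.

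The amino acid gene called lower was EgTAT7 (CL1Contig16170, LOC105051990), a tyrosine aminotransferase. It had 3 reads at 9 h and 182 at 0 h, with 4 at 3 h and 10 at 6 h, and was 75.2-fold lower at 9 h [25.3 to 368] with exact p = 3.1e-59. Most of the drop had taken place by the first sampling. In P150 it was at 43.3 reads per 100000 at 9 h and 148 at 0 h, a smaller drop (adjusted p = 3.5e-06 for the difference), and it was 1 of the few contigs called lower by both edgeR and DESeq2. A ketol-acid reductoisomerase (CL1Contig15155) of branched-chain amino acid synthesis, outside the list, had 145 reads at 9 h and 523 at 0 h (4.47-fold lower [3.71 to 5.41], exact p = 1.4e-70), and was not called by edgeR (adjusted p = 0.78) or DESeq2 (adjusted p = 0.12).

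Sugar metabolism was called higher nearly throughout: 13 of 15 contigs for starch breakdown and sucrose use, with none lower and a median of 2.14. The beta-amylase CL1Contig13363, which takes maltose off starch, had 122 reads at 9 h and 10 at 0 h (9.85-fold [5.17 to 21.0]) and its highest level at 6 h (285 reads per 100000 against 95.9 at 9 h). Of the sucrose synthases, CL1Contig6960 had 54 reads at 9 h and 1 at 0 h, while the one with most reads, CL1Contig13612, had 487 and 305, which is 1.29-fold [1.11 to 1.49]. Of 20 glycolysis and fermentation contigs 12 were called higher and 4 lower. EgADH1 (CL1Contig8265), an alcohol dehydrogenase, had 494 reads at 9 h and 215 at 0 h (1.85-fold [1.58 to 2.19]) but only 38 at 3 h and 95 at 6 h, so it dipped before it was high. At 9 h it was 14.7-fold [8.14 to 29.6] above P150. It stood well above P150 before ethylene too, at 210 reads per 100000 in AZ150 and 15.8 in P150 at 0 h. The ratios of these 2 tissues were not called different (log2 of the AZ150 ratio over that of P150, 0.15). The aldolase EgFBA6 was higher (131 reads at 9 h and 29 at 0 h), while an enolase (86 and 130), a glyceraldehyde-3-phosphate dehydrogenase (85 and 134) and EgPFK3 (27 and 66) of the same pathway were lower.

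**Figure D3:**
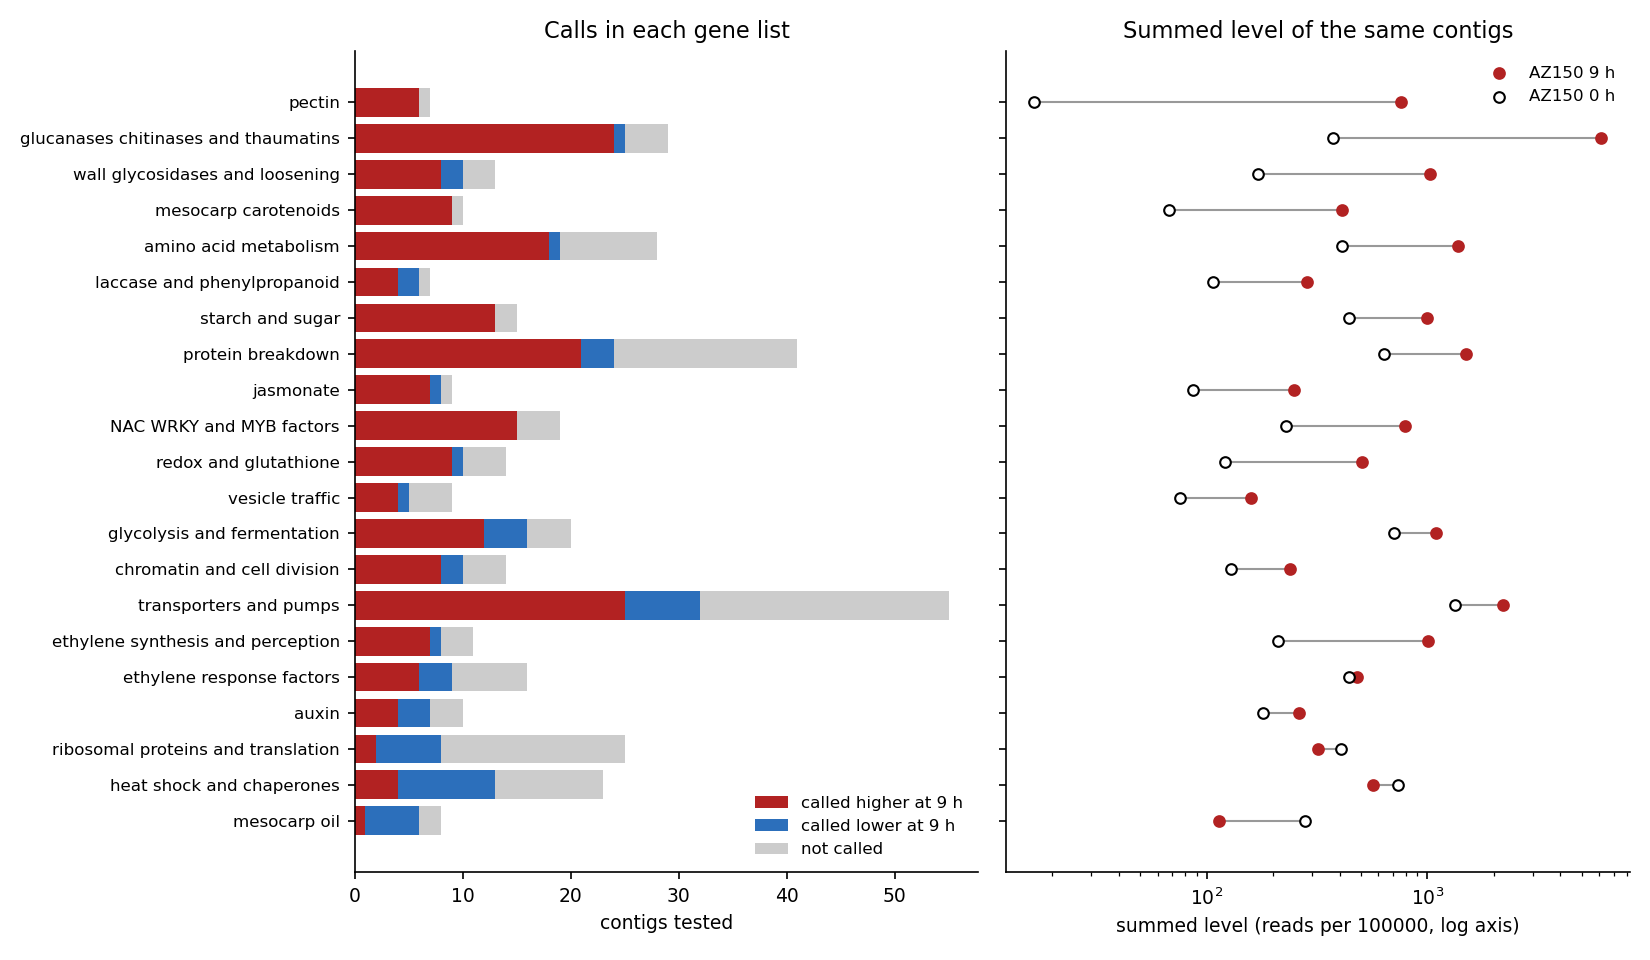
Gene lists with at least 7 contigs tested, from the highest median log2 ratio at the top to the lowest at the bottom. The left panel counts contigs called higher at 9 h (red), lower (blue) and not called (grey), and the right panel gives the summed level of the same contigs in AZ150 at 9 h (red) and 0 h (open) in reads per 100000 on a log axis, 1 library each. The summed level of the pectin list was 760.5 at 9 h and 16.6 at 0 h, and that of the mesocarp oil list 114 at 9 h and 280 at 0 h.

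Genes of redox balance gave 9 of 14 contigs called higher and 1 lower, with a median of 1.51. EgGSH1 (CL1Contig6289), which makes the first intermediate of glutathione, had 197 reads at 9 h and 9 at 0 h (17.7-fold [9.12 to 39.2]), the catalase EgCAT2.2 62 and 21 (2.38-fold [1.43 to 4.12]) and the alternative oxidase EgAOX1A of mitochondria 30 and 3. Superoxide dismutases went both ways, with 55 reads at 9 h and 13 at 0 h in CL1Contig6826 and 3 and 15 in CL1Contig1086. The list also holds a carbonic anhydrase contig (CL1Contig9771), an enzyme that hydrates carbon dioxide, with 68 reads at 9 h and 1 at 0 h, which at 9 h was far lower in AZ150 (53.5 reads per 100000) than in AZ30 (595). EgCBSX1, whose Arabidopsis relative regulates thioredoxins and anther opening, stood outside the list, with 54 reads at 9 h and 1 at 0 h (43.6-fold [7.50 to 1753]).

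Transporters and pumps had 25 of 55 contigs called higher and 7 lower, with a median of 1.16. The plasma membrane proton pump EgHA2 (CL1Contig19906), which acidifies the wall, had 256 reads at 9 h and 65 at 0 h (3.18-fold [2.41 to 4.24], exact p = 8.1e-20), while in P150 it was at 60.1 reads per 100000 at 9 h and 60.6 at 0 h, and the ratios differed (adjusted p = 0.0016). A second proton pump contig (CL1Contig1862) had 261 reads at 9 h and 113 at 0 h and at 9 h was at 205 reads per 100000 in AZ150 and 188 in P150. The sulfate transporter EgSULTR3;5 had 70 reads at 9 h and 0 at 0 h, at least 18.8-fold higher. Those called lower include 2 water channels, aquaporin CL1Contig1241 (6 reads at 9 h and 46 at 0 h, 9.50-fold lower [4.05 to 27.2]) and EgGAMMA-TIP of the vacuole (0 and 9), a peptide transporter (CL1Contig2077, 5 and 43, 10.7-fold lower [4.23 to 34.5]), and EgAGO10, an Argonaute of small RNA silencing that the list holds by its annotation only.

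In protein breakdown 21 of 41 contigs were called higher and 3 lower, with a median of 1.69. EgXBAT33 (CL1Contig8967), a ubiquitin ligase with ankyrin repeats, had 133 reads at 9 h and 10 at 0 h (10.7-fold [5.66 to 22.9]). The chloroplast chaperone and protease subunit EgERD1, known as a senescence marker, had 145 and 28 (4.18-fold [2.77 to 6.51]), and a cathepsin B-like protease (CL1Contig8320) had 453 and 145 (2.52-fold [2.09 to 3.06]). In AZ30 that protease had a larger ratio (587 reads per 100000 at 9 h and 33.9 at 0 h, adjusted p = 1.3e-09). In the 9 contigs of vesicle traffic, by which wall enzymes are secreted, 4 were called higher and 1 lower. Those higher are a coatomer subunit (15 reads at 9 h and 1 at 0 h), 2 exocyst subunits (15 and 2, 36 and 8) and the sorting nexin EgSNX1 (46 and 9, 4.12-fold [1.99 to 9.58]).

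Chaperones had more calls lower than any other list. Of 23 contigs 9 were called lower and 4 higher, with a median of -0.72, and the summed level was 567 reads per 100000 at 9 h and 736 at 0 h but 1675 at 3 h. The heat shock protein contig CL1Contig12685 had 87 reads at 9 h and 167 at 0 h (2.38-fold lower [1.82 to 3.12]) with 551 reads per 100000 at 3 h, and HSP90 (CL1Contig11003) had 68 and 144 (2.62-fold lower [1.95 to 3.56]) with 230 at 3 h. These contigs therefore lay above their 0 h level at the first sampling and below it at 9 h. Those called higher are EgJ8, a J-domain protein (94 reads at 9 h and 12 at 0 h), 2 heat shock proteins, and a cystathionine gamma-lyase (52 and 2), an enzyme of sulfur amino acids that the list holds by its annotation only.

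Translation had few calls, 2 of 25 contigs called higher, 6 lower and 17 not called, with a median of 0.18. Those lower include a translation initiation factor (CL1Contig1138, 26 reads at 9 h and 84 at 0 h, 4.0-fold lower [2.55 to 6.48]) and elongation factor 1-beta (2 and 12), and those higher a ribosomal protein S29 contig (37 and 1). In chromatin and cell division 8 of 14 contigs were called higher and 2 lower. Both histone H3 contigs were higher, with 44 reads at 9 h and 15 at 0 h and with 42 and 15, and the histone deacetylase EgHDA3 was lower (4 and 13).

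The base of the fruit also holds mesocarp, the oily flesh, and the lists fixed for it, oil and carotenoids, moved in opposite directions. Of 8 contigs of oil synthesis 5 were called lower and 1 higher, with a median of -1.72 and a summed level of 114 reads per 100000 at 9 h and 280 at 0 h. The contig called higher, whose annotation reads only 3-oxoacyl- (CL1Contig11451), had 28 reads at 9 h and 2 at 0 h (11.3-fold [2.85 to 97.9]). A contig of acetyl-CoA carboxylase was at 0 reads at 9 h and an acyl carrier protein contig at 0 at 0 h. Most of the list's reads at 0 h, 287 in all, were of 2 desaturases. The stearoyl-acyl carrier protein desaturases, which make oleic acid, had 58 reads at 9 h and 137 at 0 h (CL1Contig7507, 2.93-fold lower [2.14 to 4.05]) and 33 and 113 (CL1Contig17590, 4.24-fold lower [2.86 to 6.46]). Of 10 contigs listed for carotenoids, which colour the same flesh, 9 were called higher and none lower. Their median was 2.43 and their summed level 410 reads per 100000 at 9 h and 67.2 at 0 h. EgPDS3 (CL1Contig16017), a phytoene desaturase, had 129 reads at 9 h and 17 at 0 h (6.12-fold [3.68 to 10.8]). EgCTF2A (CL1Contig11041), a FAD-binding oxidoreductase placed in the list by its annotation, had 197 and 31 (5.13-fold [3.50 to 7.75]). A FAD-binding monooxygenase of the same locus (CL1Contig11241) had 61 and 7. As scaled here, the sums of both lists lay on the same side of 0 h in the other tissues. The carotenoid sums at 9 h and 0 h were 144 and 25.8 in P150 and 117 and 18.8 in AZ30. The oil sums were 60.1 and 96.3 in P150 and 48.5 and 79.1 in AZ30. Fewer of these contigs were called there. Of the oil contigs 0 were called lower in P150 and 1 in AZ30, and of the carotenoid contigs 3 higher in P150 and 1 in AZ30. TMM counted the AZ30 libraries as 159241 reads at 9 h and 45865 at 0 h, against totals of 214449 and 26560. The order of the AZ30 oil sums therefore depends on the scaling. Whether either pattern was particular to the ripe fruit base was not tested. Whether the share of mesocarp differed between the libraries was not tested, and in such pooled tissue fewer cells of a type and less RNA per cell cannot be told apart. Of 3 contigs for photosynthesis and chlorophyll 1 was called higher and 1 lower. EgNYE1 (CL1Contig10224), which starts chlorophyll breakdown, had 53 reads at 9 h and 5 at 0 h (8.55-fold [3.44 to 27.4]), and a Rubisco contig had 19 and 38 (2.48-fold lower [1.39 to 4.55]).

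Several annotated contigs outside the lists carried large changes. A contig named for blight-associated protein P12 (CL1Contig8178) had 391 reads at 9 h and 1 at 0 h (316-fold [56.3 to 12494]) and at 9 h was lower in AZ150 (308 reads per 100000) than in P150 (628). A lipid transfer protein contig (CL1Contig7050) had 163 reads at 9 h and 2 at 0 h (65.8-fold [17.9 to 548]). Gibberellin 2-oxidase (CL1Contig25316), which inactivates gibberellins, had 527 reads at 9 h and 62 at 0 h (6.86-fold [5.26 to 9.08]), with 511 reads per 100000 at 3 h, 146 at 6 h and 414 at 9 h. A myrosinase-binding protein contig (CL1Contig10844) had 331 reads at 9 h and 69 at 0 h in AZ150 (3.87-fold [2.98 to 5.09]). It had 0 reads at both times in P150, while in AZ30 it was at 483 reads per 100000 at 9 h against 0 reads at 0 h. Whether its reads in the fruit base came from AZ cells or from mesocarp was not tested. Lower at 9 h were a bromodomain protein (CL1Contig13286, 48 reads at 9 h and 184 at 0 h, 4.75-fold lower [3.44 to 6.67]) and EgFP6 (CL1Contig23139, 1 and 22).

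Only 12 of the 27452 contigs with no product name were called higher (0.0437%), against 616 called lower (2.24%). The names at hand cover nearly all of the higher calls and few of the lower ones, so the lower side is described here only in part. CL1Contig16380 had 185 reads at 9 h and 1082 at 0 h (7.25-fold lower [6.20 to 8.52]), with 932 reads per 100000 at 3 h and 1001 at 6 h, so its drop fell after 6 h. CL1Contig18417 had 442 reads at 9 h and 1087 at 0 h (3.05-fold lower [2.73 to 3.41]). The first of these was not called lower at 9 h in the other tissues, at 1157 reads per 100000 at 9 h and 866 at 0 h in P150 and 1428 and 1457 in AZ30. The unnamed contigs with the largest gain, CL1Contig22979 (85 reads at 9 h and 6 at 0 h) and CL1Contig9221 (36 and 3), were lower at 9 h in AZ150 (66.8 and 28.3 reads per 100000) than in AZ30 (568 and 124).

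Over the 4 times, 332 of the 493 contigs called higher had their highest level at 9 h, 77 at 6 h and 84 at 3 h. Their level was already above that of 0 h in 422 contigs at 3 h and in 455 at 6 h. Of the 743 called lower, 614 were highest at 0 h, 79 at 3 h and 50 at 6 h. These comparisons share the 0 h library and are values side by side.

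The same comparison of 9 h with 0 h was made in the other tissues, each with its own 0 h library. In P150 456 contigs were called higher (1.50% of 30463) and 168 lower (0.551%), and in AZ30 232 were higher (0.823% of 28177) and 1754 lower (6.22%), or 814 lower by an exact binomial test. The higher calls of AZ150 and P150 shared 189 contigs, which is 38.3% of the AZ150 list and 41.4% of the P150 list. AZ150 and AZ30 shared 129, 26.2% of the AZ150 list and 55.6% of the AZ30 list. The lower calls shared 108 contigs with P150 (14.5% of the AZ150 list, 64.3% of the P150 list) and 155 with AZ30 (20.9% and 8.84%). A call in AZ150 alone does not show a difference between tissues, and the test of the difference itself found few: the ratio of AZ150 differed from that of P150 in 34 of 9297 contigs (0.366%), above it in 7 (0.0753%) and below it in 27 (0.290%), and from that of AZ30 in 77 of 8530 (0.903%), above it in 32 (0.375%) and below it in 45 (0.528%). With TMM scaling 70 contigs differed from P150 and 229 from AZ30, so these counts depend on the scaling. The test has little to work with where a contig is near 0 at 0 h, as for EgPG4 above. Contigs that it did not call may therefore still differ between tissues. As scaled here, no contig called higher in AZ150 was called beyond the ratios of both tissues. Of those called lower 5 were, and none of the 5 had a product name.

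Levels in the field AZ were in RPKM, 1 library at each age, and are set beside the ethylene series as values. In the order 30, 120 and 160 DAP, EgPG4 was at 4.83, 35.9 and 1938 RPKM, EgLAC7 at 1.22, 30.8 and 1267, and EgPMEI at 3.47, 110 and 1259. EgThaumatin PR was at 3.51, 49.8 and 17186 RPKM, and EgASN1 at 3.86, 73.4 and 1536. Each of these was highest in the tissue that was being shed. EgTAT7 ran the other way, at 2352, 660 and 36.0 RPKM. The ACC oxidase CL1Contig2645 was at 389, 2110 and 1718 RPKM, high before shedding was seen, and the desaturase CL1Contig7507 at 277, 1629 and 105. The beta-galactosidase CL1Contig3577, with 858 reads after 9 h of ethylene, was matched to a transcript at only 10.3, 7.03 and 22.0 RPKM in the field.

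**Figure D4:**
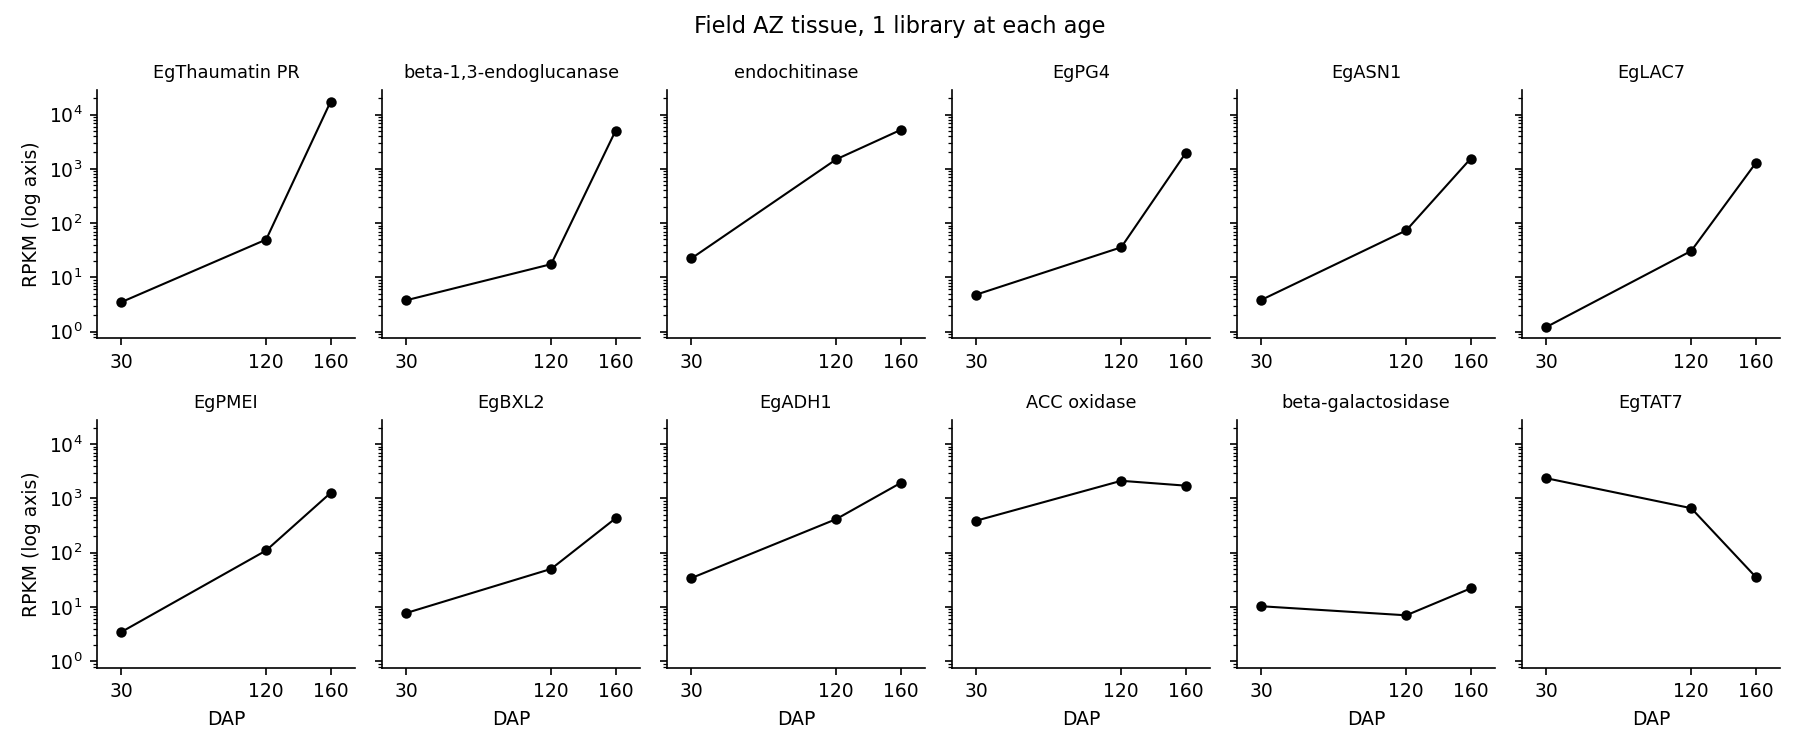
Field AZ levels in RPKM (vertical, log axis) at 30, 120 and 160 DAP (horizontal) of the transcripts matched to 12 contigs, with 1 library at each age. EgPG4 is at 4.83, 35.9 and 1938 RPKM and EgTAT7 at 2352, 660 and 36.0.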

How the data were processed

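RNA of the ethylene experiment was sequenced by Roche pyrosequencing as tagged cDNAs mixed into a single sample, and the number of runs is not stated. The deposited values are read counts per assembled contig. Which programs the authors assembled with is not stated in the sources at hand. The field libraries were sequenced by Illumina, and the deposited RPKM values come from the authors' alignment by BWA-MEM to EG5 transcripts after Cutadapt. Counts were scaled to 100000 contig reads per library. Calls used the Audic and Claverie test with the observed count in both tails (Python 3.11.15, scipy 1.17.1), which asked 9 reads against 0 for a higher call and 6 for a lower one. Differences between ratios used an exact conditional test over contigs with at least 10 reads in 4 libraries, with Benjamini-Hochberg adjustment at 0.05. edgeR 4.0.16 and DESeq2 1.42.0 (R 4.3.3) gave alternatives, with tissue and time as terms. Scripts were tested on simulated data.

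Named contigs are the annotated ones with the 15 largest log2 ratios and 10 largest differences each way, the 3 best-read members of each of 23 lists, the study's separation genes, and those that differed most from P150 and AZ30, with up to 2 contigs each way that have no product name. Of these 117 contigs, 112 have a product name. Other list members named here were chosen after their values were seen. Members and lists were chosen with earlier results of these data known. Product names come from the study's supplementary annotation, and gene symbols from RefSeq EG11, in which 845 of the 1050 annotated contigs had an entry. In the deposited files, 17 columns that hold no values of a mapped sample were not used. The pedicel is given as 30 DAP in the study's methods and as 150 DAP in the labels, which were followed. The tables of the authors' own comparisons were not used.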

Additional observations from a re-analysis of the deposited data

Results flagged for a closer look

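The ratio of 9 h to 0 h differed between AZ150 and another tissue in the following named contigs (exact conditional test, adjusted p under 0.05). Values are the log2 of the AZ150 ratio over that of the other tissue, with a count of 0 at 3 reads. Each rests on 4 single libraries.

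Against P150, the AZ150 ratio was above in ACC oxidase CL1Contig6785 (4.66), acidic chitinase CL1Contig7836 (2.21), EgHA2 (1.68), heat shock protein CL1Contig12685 (1.44) and beta-1,3-glucanase CL1Contig7306 (0.60). It was below in EgNRT1/PTR (-5.53), EgTAT7 (-4.46), the RNA helicase-like CL1Contig3706 (-4.14), ACC oxidase CL1Contig2645 (-3.80), pectin acetylesterase CL1Contig2129 (-3.45), gibberellin 2-oxidase (-1.79) beta-galactosidase CL1Contig3577 (-1.38) and 2 contigs with no product name, CL1Contig16380 (-3.27) and CL1Contig18417 (-1.25). With TMM scaling, planned for the counts of contigs that differ and read for each named contig after seeing the data, the calls of beta-galactosidase and gibberellin 2-oxidase were lost. EgNRT1/PTR kept its difference from P150 (-4.83). Its own call of 9 h against 0 h in AZ150 (log2 ratio -1.31) was lost with TMM and with DESeq2 size factors.

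Against AZ30, the AZ150 ratio was above in hexokinase CL1Contig8247 (5.82), cellulose synthase-like CL1Contig24120 (3.21), the beta-1,3-glucanase CL1Contig14094 (2.88), the contigs named Os11g0223400 (2.76) and Os08g0119500 (2.64), EgBPS1-like (2.37), mitochondrial carrier CL1Contig7277 (1.70) and LOC105057231 (1.52). The last 3 were lost with TMM scaling. It was below in EgFP6 (-5.21), cinnamoyl CoA reductase CL1Contig13368 (-3.88), myrosinase-binding protein CL1Contig10844 (-3.46), chitinase CL1Contig23312 (-3.22), cathepsin B-like protease CL1Contig8320 (-2.78), heat shock proteins CL1Contig12685 (-2.47) and CL1Contig4584 (-1.68), CONSTANS-interacting protein CL1Contig15727 (-2.43), EgADH1 (-2.15), ketol-acid reductoisomerase CL1Contig15155 (-1.34) ATP-binding cassette protein CL1Contig7175 (-1.24), and the unnamed CL1Contig16380 (-2.83) and CL1Contig18417 (-2.58). The AZ30 library at 0 h held 26560 reads, so several of these rest on fewer than 10 reads there.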

How the results depend on the processing

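No paired analysis was possible because each group has 1 library, and for the same reason no replicate could be left out. Against 493 higher and 743 lower calls, Benjamini-Hochberg adjustment left 319 and 348, Bonferroni 155 and 96, and a minimum of 4-fold 287 and 392. edgeR called 41 and 2 (440 and 250 at an unadjusted p under 0.05) and DESeq2 41 and 11 (216 and 128), with a common dispersion of 0.211 on 4 residual degrees of freedom, and all of the edgeR calls were also calls here. TMM scaling gave 612 and 521 calls and DESeq2 size factors 581 and 536. An exact binomial test gave 493 and 566, so its loss was all on the lower side. A minimum of 10 reads gave 475 and 547, and thinning to equal depth 475 and 577. With the observed count in the lower tail only, the Audic and Claverie test gave 563 and 743. The median log2 ratio of -0.07 became 0.149 with TMM and 0.094 with DESeq2 size factors. With TMM 70 contigs differed from P150 and 229 from AZ30, against 34 and 77. The 1754 lower calls in AZ30 became 814 with an exact binomial test, chosen after seeing the data. Of the 117 named contigs none changed direction: with TMM 5 lost their call and 4 gained one, and with DESeq2 size factors 3 and 4. EgPG4 had an adjusted p of 1.0e-04 by edgeR and 0.48 by DESeq2. Depth limits low contigs most: 7697 contigs were read only at 9 h and 8221 only at 0 h, of which 90 and 207 were called.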
